A study of Mus musculus with 9 samples.

Results

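The 7 MHC class II antigen presentation genes H2-Aa, H2-Ab1, H2-Eb1, Cd74, H2-DMa, H2-DMb1 and Ciita were followed in RNA-seq of the mouse main olfactory epithelium. They were taken by symbol from the 55291 genes of the table, and all 7 passed the filter on low counts that left 23225 genes for testing. The series holds 3 wild-type mice (C57BL/6), 3 Ms4a cluster knockout mice (C57BL/6; Ms4a cluster-/-) and 3 Ms4a6c knockout mice (C57BL/6; Ms4a6c-/-), all between 8 and 12 weeks old, and was made to characterize what Ms4a genes do in the olfactory system. In the cluster knockout the Ms4a gene cluster was deleted with CRISPR/Cas9, and in the Ms4a6c knockout that 1 gene was removed by homologous recombination. Both deletions are carried by the whole animal, so cells outside the olfactory sensory neurons also lack the genes. The wild-type mice are described as littermates, but the line they came from, and the sex of each mouse, are not given in the sources used here. All 3 comparisons share samples, since the wild-type mice serve both knockouts and each knockout also enters the direct comparison.

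MHC class II molecules are pairs of an alpha and a beta chain that carry peptides from taken-up proteins to the cell surface, where CD4+ T cells read them. Newly made pairs are held by the invariant chain, encoded by Cd74, and exchange its remnant for a peptide with the help of the H2-DM pair. Macrophages, dendritic cells and B cells are the classical class II cells, and Ciita, the class II transactivator, switches the whole set on through a shared X and Y box upstream of each gene. Ms4a genes themselves include B cell and macrophage transcripts, such as Ms4a1 and Ms4a7, besides the receptors of necklace sensory neurons.

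Of the 7 genes, 5 lie on chromosome 17 of GRCm38, in GENCODE M21, and all are protein-coding. H2-DMa, the DM alpha chain, spans chr17:34119541-34139101 on the + strand, and H2-DMb1, a DM beta chain, spans chr17:34153072-34160230 on the + strand. H2-Ab1, the A beta chain, spans chr17:34257689-34269419 (+), H2-Aa, the A alpha chain, chr17:34282744-34287823 (-), and H2-Eb1, the E beta chain, chr17:34305867-34316674 (+). Ciita lies on chromosome 16 at 10480059-10528418 (+), and Cd74 lies outside this region as well. Stretches of 100 bases shared with another gene were found in H2-DMb1 alone, which shares 179 of its 1579 stretches, or 11.3%, with its neighbor H2-DMb2, so that reads from these parts could be split between both genes. H2-DMa overlaps Brd2, a gene of the opposite strand at 221 CPM in wild-type mice, and Ciita overlaps Dexi on the opposite strand. The libraries keep the strand, but whether the counting used it is not given in the sources used here.

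The promoter table has windows for 4 of the 7 genes, H2-Aa, H2-Eb1, H2-DMb1 and H2-DMa, and the X and Y boxes were searched in them and in the other class II molecule genes. The Y box letters TGATTGG were found in the RefSeq windows (250 bases before to 50 after the start of transcription, GRCm38.p6, both strands searched) of 7 of the 8 class II molecule genes with an entry, against 7.82% of 32851 promoters of the same length. H2-Aa, H2-Eb1, H2-DMb1, H2-DMb2, H2-Oa, H2-Ob and H2-Eb2 held it, and neither of the 2 windows of H2-DMa did. Those windows include chr17:34122707-34122793 and chr17:34125393-34125479, in a gene that ends at 34139101. The first lies next to Brd2, which runs on the opposite strand and ends at 34122634. Other starts of H2-DMa were not searched, so a Y box elsewhere in the gene is not excluded. A core of the X box (CCTAGNNAC or CCCAGNNAC) was found in 11.5% of all promoters, and the letters AACNGATGA, which overlap the end of that core in H2-DMb1, in 0.648%. These last letters and the octamer TGACGTCA, present in 1.79% of promoters, were chosen after the sequences were read. The stretches below are shown because they hold these boxes, 5′ to 3′ on the strand of the gene, with the matched letters in capitals. They cover chr17:34287862-34287948 (-) for H2-Aa, chr17:34305742-34305828 (+) for H2-Eb1, chr17:34145124-34145210 (+) for H2-DMb2, chr17:34092254-34092340 (+) for H2-Oa and chr17:34238780-34238866 (+) for H2-Ob. Of H2-DMb1 a piece around each box is shown, chr17:34153089-34153109 and chr17:34153124-34153144 (+).
H2-Aa: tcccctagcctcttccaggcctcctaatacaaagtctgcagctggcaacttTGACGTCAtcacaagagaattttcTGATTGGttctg
H2-Eb1: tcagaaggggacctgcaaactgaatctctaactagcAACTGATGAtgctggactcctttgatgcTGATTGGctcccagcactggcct
H2-DMb1, X box: tttaCCTAGTAACTGATGAtg
H2-DMb1, Y box: tcagTGATTGGtctgacctgc
H2-DMb2: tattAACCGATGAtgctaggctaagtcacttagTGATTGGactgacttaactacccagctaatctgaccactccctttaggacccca
H2-Oa: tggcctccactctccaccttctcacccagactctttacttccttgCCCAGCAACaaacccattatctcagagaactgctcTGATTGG
H2-Ob: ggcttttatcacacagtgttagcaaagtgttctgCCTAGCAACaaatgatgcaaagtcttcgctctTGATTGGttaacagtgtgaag
The Y box began 50 bases before the start in H2-Aa, 61 before it in H2-Eb1, 63 in H2-DMb1 and 92 in H2-DMb2. The first bases of AACNGATGA and of the Y box lay 28 bases apart in H2-Eb1 and 29 apart in both DM beta genes. From the X box core to the Y box the distance was 35 bases in H2-DMb1 and H2-Oa and 32 in H2-Ob. The core letters also matched 192 bases before the start in H2-DMb2 and 180 in H2-Aa, outside the stretches shown. These matches lay 100 and 130 bases from the Y box, and whether they are X boxes was not tested. Neither H2-Eb1 nor H2-Eb2 held the core. Y box and AACNGATGA stood together in 20 promoters, or 0.0609% of all. A match is a description of letters, not of a bound site, and the table has no entry for H2-Ab1, Cd74 or Ciita.

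**Figure D1:**
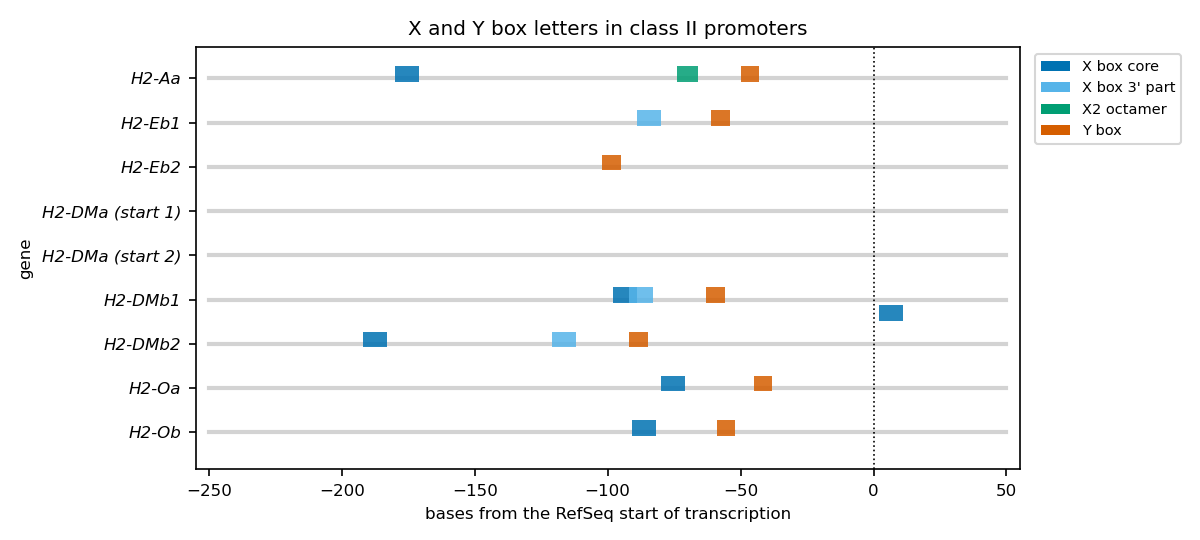
Positions of the X box core, the X box 3' part (AACNGATGA), the X2 octamer (TGACGTCA) and the Y box in the RefSeq promoter windows of 8 class II molecule genes, in bases from the start of transcription. Marks above a line are on the strand of the gene and the 1 mark below a line, in H2-DMb1, is on the other strand. The Y box lies between 102 and 45 bases before the start in 7 genes and in neither window of H2-DMa, of which other starts were not searched.

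Each library held 13954591 to 21987174 expected counts, so that 3 counts, taken as the limit of detection, equal 0.136 to 0.215 CPM, a count relative to the size of its library. Levels are CPM after TMM scaling, which corrects each library for a few very abundant transcripts. The limits are by library total, without this scaling, and cover counting error only. Wild type 1 and cluster knockout 2 stood apart, since Bpifb9b, a secreted nasal gland transcript, took 10.4% and 10.2% of their counts, and their TMM factors were 0.702 and 0.704 against 1.07 to 1.13 in the other 7 mice. Ms4a6c held 54 to 90 counts in wild-type mice, 0 in every cluster knockout mouse and 0, 2 and 2 in the Ms4a6c knockout mice. The markers of the tissue were present, as all 7 olfactory sensory neuron markers were above 0 in every group, with summed levels of 8681 to 11140 CPM.

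None of the 7 class II genes passed the test in any comparison (edgeR quasi-likelihood test, adjusted p under 0.05). Of all 23225 genes tested, 0.0258% passed between cluster knockout and wild type, 0.435% between Ms4a6c knockout and wild type, and 0.443% between the knockouts. An unadjusted p under 0.05 was reached by 1 of 7 in the first comparison (H2-DMa), 0 of 7 in the second and 1 of 7 in the last (H2-Ab1), beside 4.93%, 10.5% and 9.37% of all genes tested. DESeq2 called 0 of 7 in each comparison as well, with 1, 1 and 2 at an unadjusted p under 0.05, beside 3.22%, 8.56% and 7.6% of all genes tested. The unadjusted counts depended on the fit. With only the 2 knockouts fitted, 4 of 7 reached it between them, as did 2092 of all genes. Without cluster knockout 1 it was 0 of 7. For the Ms4a6c knockout against wild type, 4 of 7 reached it without wild type 2, as did 1917 of all genes. None passed after adjustment in these fits. What follows gives the levels themselves, how the genes vary together, and how large a change the intervals leave room for.

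The A chains form the class II molecule whose pair is complete in C57BL/6 mice. H2-Aa, the alpha chain, measured 71.5, 49.7 and 62.7 CPM in wild-type mice 1, 2 and 3, then 64.1, 65.0 and 53.0 CPM in the cluster knockout and 52.1, 42.7 and 54.5 CPM in the Ms4a6c knockout. The wild-type range took in nearly all other values, and only Ms4a6c knockout mouse 2 lay below it. The mean was 61.3 ± 10.9 CPM (SD, n = 3) in wild type, 60.7 ± 6.7 in the cluster knockout and 49.8 ± 6.25 in the Ms4a6c knockout. Against wild type, the Ms4a6c knockout gave a log2 fold change of -0.30 (SE 0.14, adjusted p = 0.487), with a 95% interval from -0.61 to 0.0099. The cluster knockout gave -0.015 (SE 0.14, adjusted p = 1), with an interval from -0.32 to 0.29.

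H2-Ab1, its beta partner, also had wild type 1 highest and Ms4a6c knockout 2 lowest. It stood at 49.5, 32.3 and 46.6 CPM in wild type, 45.3, 49.4 and 42.4 in the cluster knockout, and 34.8, 31.8 and 40.1 in the Ms4a6c knockout. Each cluster knockout mouse was above each Ms4a6c knockout mouse, while wild-type mice covered both ranges apart from the lowest value. Group means were 42.8 ± 9.22, 45.7 ± 3.51 and 35.6 ± 4.18 CPM. Between the knockouts the log2 fold change was 0.36 (SE 0.15, interval 0.03 to 0.69, unadjusted p = 0.0352, adjusted p = 0.487), a level 1.28 times as high in the cluster knockout, which did not pass.

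H2-Eb1 encodes the beta chain of the second class II molecule, whose alpha chain gene H2-Ea carries a deletion in the b haplotype of C57BL/6 mice. H2-Ea was listed at 0 counts in all 9 mice, which allows a level of up to 0.136 to 0.215 CPM by library total. After TMM scaling 3 counts equal 0.299 CPM in cluster knockout 2. H2-Eb1 was present in every mouse, with 51.7, 31.7 and 43.8 CPM in wild type, 42.8, 47.7 and 40.3 in the cluster knockout and 38.2, 33.1 and 39.0 in the Ms4a6c knockout. Its 3 groups had means of 42.4 ± 10.1, 43.6 ± 3.79 and 36.7 ± 3.22 CPM. The largest of its changes, 0.24 between the knockouts (SE 0.15, adjusted p = 0.66), did not pass. Each cluster knockout mouse was above each Ms4a6c knockout mouse, as in 7.86% of all genes tested. By library total alone these 2 groups overlapped. H2-Eb2, a second E beta gene, had between 0 and 5 counts in a mouse.

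Cd74, the invariant chain, which lies on chromosome 18 of GRCm38 at 60803848-60812652 (+), was the most abundant of the 7 and ranked 1636 among 55291 genes by its wild-type mean. Its values were 131, 84.7 and 106 CPM in wild type, 113, 114 and 104 in the cluster knockout and 97.5, 74.3 and 94.9 in the Ms4a6c knockout. The cluster knockout mice were nearly alike, whereas wild-type mice 1 and 2 enclosed every other mouse but Ms4a6c knockout 2. The means were 107 ± 23, 111 ± 5.26 and 88.9 ± 12.7 CPM. Neither knockout differed from wild type beyond the spread, at 0.047 for the cluster knockout (interval -0.28 to 0.37) and -0.27 for the Ms4a6c knockout (interval -0.59 to 0.06, adjusted p = 0.56). On the fold scale these intervals run from 0.824 to 1.29 and from 0.663 to 1.04.

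The DM pair, which exchanges the remnant of the invariant chain for peptide, was lower in level. Its spread against that of the other genes depended on the scaling, since the coefficients of variation over the 9 mice were 11.4% for H2-DMa and 7.59% for H2-DMb1 with TMM but 22.6% and 19.5% with libraries scaled by their total alone, where Cd74 was at 16.6%. H2-DMa was at 7.75, 7.82 and 8.65 CPM in wild type, 10.6, 9.37 and 10.4 in the cluster knockout and 8.65, 9.18 and 8.22 in the Ms4a6c knockout. It was the single class II gene with every cluster knockout mouse above every wild-type mouse, as were 4.71% of all genes tested. The change was 0.33 (SE 0.11, interval 0.078 to 0.58, 1.25-fold) with an unadjusted p of 0.0151 and an adjusted p of 0.968. The values rest on 94.1 to 211 counts per mouse in the cluster knockout and 109 to 152 in wild type. Those of the cluster knockout, 211.36, 94.08 and 207.34, were not whole numbers, as where reads are shared with another gene. Nor were those of wild type 1 and 2, 109.08 and 141.42. Wild type 3 (152) and the Ms4a6c knockout mice had whole numbers. Scaled to the plain library size, the ranges of H2-DMa overlapped, with 11.9, 6.6 and 11.4 CPM in the cluster knockout and 5.44, 8.59 and 9.64 in wild type.

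H2-DMb1 held 10.2, 9.26 and 10.9 CPM in wild type, 11.8, 10.7 and 11.1 in the cluster knockout, and 9.96, 9.68 and 9.87 in the Ms4a6c knockout. The Ms4a6c knockout mice differed by less than any other group, and all 3 sat inside the wild-type range. The changes were 0.15 (SE 0.10, adjusted p = 0.971) for the cluster knockout and -0.037 (SE 0.10, adjusted p = 0.933) for the Ms4a6c knockout. Its neighbor H2-DMb2, also a DM beta gene, measured 9.95, 11.5 and 12.3 CPM in wild type, 10.5, 8.27 and 11.6 in the cluster knockout and 10.6, 10.2 and 10.7 in the Ms4a6c knockout. Summing both DM beta genes, an alternative added after seeing the data because they share sequence, gave -0.0023 for the cluster knockout against wild type.

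Ciita, the transactivator, was the rarest, with 30 to 72 counts in a mouse. It stood at 3.27, 2.27 and 3.75 CPM in wild type, 2.6, 2.99 and 3.51 in the cluster knockout and 2.95, 2.54 and 2.80 in the Ms4a6c knockout. All groups overlapped, and the means were 3.1 ± 0.755, 3.03 ± 0.453 and 2.77 ± 0.207 CPM. At this depth the intervals were the widest of the set, from -0.53 to 0.47 for the cluster knockout and from -0.66 to 0.34 for the Ms4a6c knockout. Changes inside these bounds are compatible with the data, and the bounds are not a limit of detection.

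**Figure D2:**
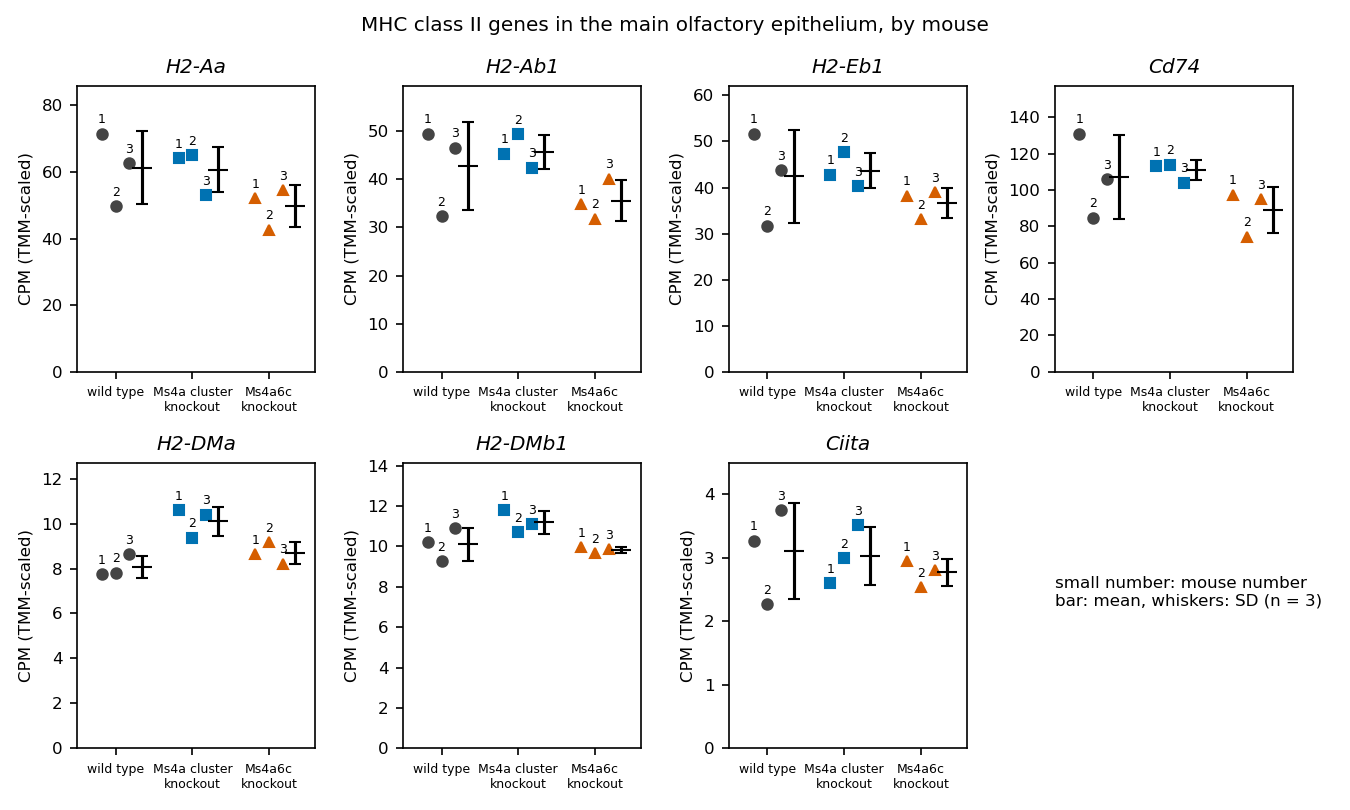
Level of each class II gene in each mouse, in TMM-scaled CPM on axes that start at 0, with the mouse number beside each point and the mean and SD of 3 mice beside each group. For H2-Aa, H2-Ab1, H2-Eb1 and Cd74, wild type 1 is highest and wild type 2 and Ms4a6c knockout 2 are the 2 lowest mice, while H2-DMa is above every wild-type value in the 3 cluster knockout mice.

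Read together, 6 of the 7 genes had a negative log2 fold change in the Ms4a6c knockout against wild type, with a median of -0.20, where the median of all genes tested was -0.0016. This count depended on the scaling, and by library total alone 3 of 7 had a lower mean in the Ms4a6c knockout and 4 a higher one. Sustentacular cell markers summed to 18786 to 20321 CPM in the Ms4a6c knockout and 15056 to 15358 in wild type, neutrophil markers to 49.2 to 142 and 47.3 to 61.1, and plasma cell markers to 95.3 to 169 and 21.9 to 160, and their part in the class II values was not tested. None of the 7 had all Ms4a6c knockout mice below all wild-type mice, as 1985 of all 23225 genes tested did. None had them all above either, as 9.71% of all genes tested did. In the cluster knockout against wild type 5 of 7 were positive, with a median of 0.047 against 0.0073 for all genes tested. Between the knockouts all 7 had a positive log2 fold change toward the cluster knockout, with a median of 0.24 against 0.007, and by library total alone 6 of 7 had the higher mean there. There, 5 of 7 (H2-Ab1, H2-Eb1, Cd74, H2-DMa and H2-DMb1) had every cluster knockout mouse above every Ms4a6c knockout mouse, as did 7.86% of all genes tested. Several of the 7 genes varied together from mouse to mouse, so these counts are not 7 separate observations.

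The counts of groups that do not overlap depended on the scaling and the comparison with wild type on single mice. Where libraries were scaled by their total alone, 0 of the 7 genes had groups that did not overlap between the knockouts, where 2.01% of all genes tested lay higher in each cluster knockout mouse. Without wild type 1 and cluster knockout 2, the libraries rich in Bpifb9b, it was again 5 of 7, beside 13.9% of all genes tested, and the median over the 7 genes was -0.10 for the Ms4a6c knockout against wild type, 0.15 for the cluster knockout against wild type and 0.23 between the knockouts. Without wild type 2 the Ms4a6c knockout gave -0.43 for H2-Aa, -0.43 for H2-Ab1, -0.38 for H2-Eb1 and -0.41 for Cd74, with adjusted p between 0.288 and 0.46. Without wild type 1 the same genes gave -0.17, -0.15, -0.037 and -0.10.

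**Figure D3:**
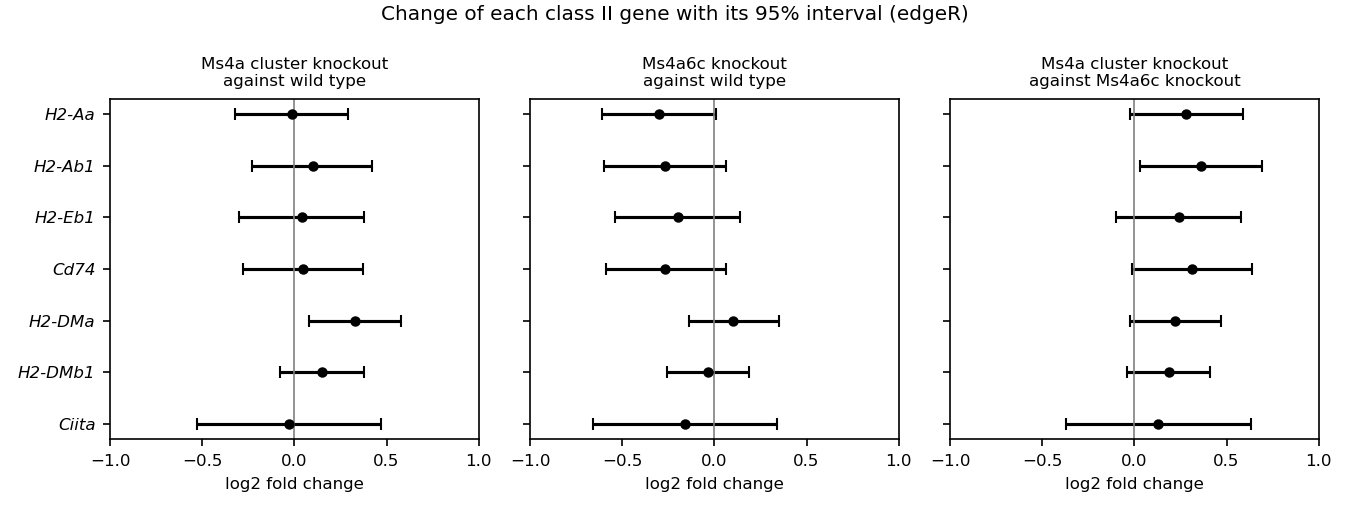
Log2 fold change of each class II gene in the 3 comparisons, with its 95% interval from the edgeR fit of 9 mice. The interval excludes 0 for H2-DMa in the cluster knockout against wild type (0.078 to 0.58) and for H2-Ab1 between the knockouts (0.03 to 0.69), and no gene passed after adjustment over all genes tested.

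Levels differ between genes of different length, so they were compared per kb of the transcript with the longest coding sequence. Over the 9 mice, Cd74 came first at 72.5 CPM per kb (range 52.7 to 92.6), then H2-Aa at 50.8 (37.8 to 63.4), H2-Eb1 at 34.9 (27 to 44.2) and H2-Ab1 at 34.1 (26.3 to 40.8). The DM genes formed a lower tier, with H2-DMb2 at 7.47 CPM per kb, H2-DMb1 at 7.38 and H2-DMa at 5.4. H2-Ob and H2-Oa, the chains of H2-DO, a modulator of DM known from B cells, were at 0.787 and 0.405 CPM per kb, and Ciita at 0.7. H2-Eb1 and H2-Ab1 did not differ beyond their spread, nor did H2-DMb2 and H2-DMb1, nor H2-Ob and Ciita. H2-Oa was below H2-Ob in 8 of 9 mice and below Ciita in 8 of 9. The order within the first tier depends on the length used. Per kb of all exons merged, an alternative added after seeing the data, Cd74 stayed first at 60.9, and H2-Eb1 (21), H2-Ab1 (16.1) and H2-Aa (15.1) followed.

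**Figure D4:**
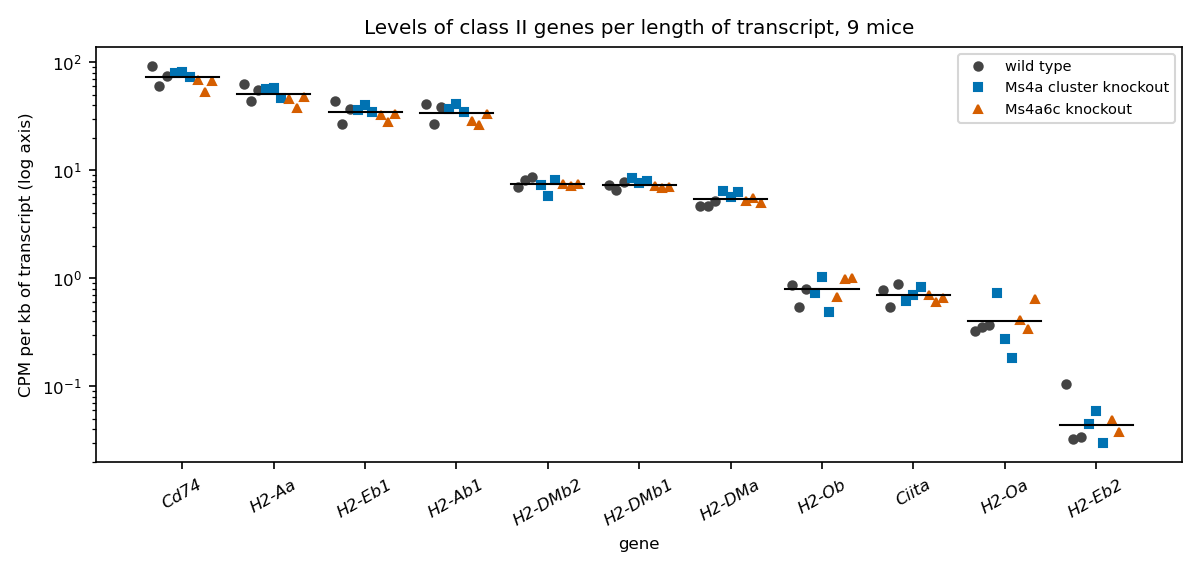
Level per kb of transcript of 11 class II genes in the 9 mice, on a log axis, with the mean over the mice as a bar and symbols by genotype. Cd74, H2-Aa, H2-Eb1 and H2-Ab1 lie between 26.3 and 92.6 CPM per kb, the DM genes between 4.67 and 8.67, and H2-Ob, Ciita and H2-Oa near or under 1. A mouse at 0 counts, as Ms4a6c knockout 2 for H2-Eb2, has no point.

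Ratios between chains within a mouse do not depend on the scaling of its library, and they were far steadier than the levels. H2-Aa over H2-Ab1 was 1.39 ± 0.0933 in CPM (SD, n = 9), with a lowest value of 1.25 and a highest of 1.54. H2-Aa over Cd74 was 0.561 ± 0.0272, between 0.507 and 0.592, and H2-Eb1 over H2-Ab1 was 0.993 ± 0.0553, between 0.939 and 1.1. The coefficients of variation of these 3 ratios were 6.71%, 4.84% and 5.57%, while those of the levels of H2-Aa, H2-Ab1, H2-Eb1 and Cd74 were 15.9%, 17%, 15.8% and 16.4%. The A chains, the E beta chain and the invariant chain therefore varied together over the 9 mice, more closely than any of them kept a constant level.

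The DM genes followed that block less closely. H2-DMa over H2-DMb1 was 0.801 ± 0.0413 in wild type, 0.904 ± 0.0296 in the cluster knockout and 0.883 ± 0.0596 in the Ms4a6c knockout. The ratio in every cluster knockout mouse (0.879 to 0.937) exceeded that in every wild-type mouse (0.762 to 0.844). How many other ratios separate so was not counted, and of single genes tested 4.71% did. H2-DMb1 shares sequence with H2-DMb2, and H2-DMb2 over H2-DMb1 was 1.12 ± 0.134, 0.903 ± 0.135 and 1.07 ± 0.0134 in the same groups. H2-DMa over Cd74 varied by 18.9% over the mice, between 0.0593 and 0.124. Ciita over Cd74 was 0.0294 ± 0.00439, with a coefficient of variation of 15%, from counts of Ciita between 30 and 72. As shares of the summed level of all 7 genes in a mouse, Cd74 held 36.6% to 40.2%, H2-Aa 20% to 22.8%, H2-Ab1 14.2% to 16.5% and H2-Eb1 14.5% to 16.3%.

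The summed level of the 7 genes was 324, 218 and 282 CPM in wild-type mice 1, 2 and 3, then 291, 299 and 265 in the cluster knockout and 244, 203 and 249 in the Ms4a6c knockout. Wild type 2 was among the 2 lowest mice for 7 of 7 genes and Ms4a6c knockout 2 for 6 of 7. On plain CPM the mice sorted otherwise, and wild type 2 was among the 2 lowest for 1 of 7 genes, Ms4a6c knockout 2 for 3, wild type 1 for 4 and cluster knockout 2 for 6. In RNA of a whole tissue, fewer class II cells and less class II RNA in each cell cannot be told apart.

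Markers of the classical class II cells were present at unequal levels. All 12 macrophage markers were detected in every group, summing to 327 to 486 CPM in wild type, 318 to 484 in the cluster knockout and 302 to 337 in the Ms4a6c knockout. The highest sums, 486 and 484, were those of wild type 1 and cluster knockout 2, the libraries rich in Bpifb9b. The other mice of these groups had 329 and 327, and 374 and 318 CPM. Dendritic cell markers summed to 31.6 to 35.2, 33.6 to 36.6 and 33.1 to 39.2 CPM, most of it Zbtb46, at 20.2 CPM in wild type, while Flt3 (0.461), Xcr1 (0.179) and Clec9a (0.337) were near the limit and Cd207 was listed at 0 in wild type and the cluster knockout. B cell markers summed to 4.33 to 6.75, 4.19 to 9.07 and 5.21 to 11 CPM, with Cd79a at 0.891 CPM in wild type and Ms4a1 at 0 in the cluster knockout, where it is deleted. The T cell and NK cell markers summed to 2.72 to 3.36, 3.89 to 4.46 and 3.1 to 3.44 CPM. The part of these cells in the class II levels was not tested.

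With all 9 mice, no macrophage, dendritic cell or T cell and NK cell marker passed the test in any comparison. Between the knockouts 7 of 12 macrophage markers were higher in the cluster knockout at an unadjusted p under 0.05, as were 4.68% of all genes tested, among them C1qc, a complement subunit (22.6 ± 2.24 against 14.8 ± 0.865 CPM, adjusted p = 0.0507), C1qb (26.6 ± 3.08 against 18.5 ± 2.16, adjusted p = 0.123) and Mrc1, the mannose receptor (12.9 ± 0.869 against 9.51 ± 0.605, adjusted p = 0.164). The median over the 12 markers was 0.32, beside 0.24 over the 7 class II genes and 0.007 over all genes tested. Against wild type the Ms4a6c knockout had a median of -0.27 over the macrophage markers and -0.20 over the class II genes. At an unadjusted p under 0.05, 1 marker was higher and 2 were lower there, beside 5.35% and 5.12% of all genes tested. For the cluster knockout against wild type 4 were higher and 0 lower, beside 2.25% and 2.68%. Leaving out the 2 Bpifb9b-rich libraries made that 3 higher and 3 lower, beside 997 and 979 of 22710 genes. Without the 2 Bpifb9b-rich libraries, 1 of the 12 markers passed as higher in the cluster knockout than in the Ms4a6c knockout. In the same fit 2 passed as lower in the Ms4a6c knockout than in wild type. Of all 22710 genes tested, 80 and 194 did so. The part of macrophage content in the class II values was not tested.

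Of the other genes of the pathway, 1 passed. Ctss, cathepsin S, which trims the invariant chain in the class II compartment, was at 28.6, 25.2 and 27.4 CPM in wild type, 27.1, 31.1 and 29.7 in the cluster knockout and 21.4, 19.8 and 19.9 in the Ms4a6c knockout. The Ms4a6c knockout mice lay below all 6 others with TMM, but by library total alone wild type 1 (20.1 CPM) lay below all 3 of them (21.2 to 23.7). Between the knockouts the log2 fold change was 0.52 (SE 0.08, adjusted p = 0.0209), 1.44-fold higher in the cluster knockout, and the Ms4a6c knockout against wild type gave -0.41 (SE 0.08, adjusted p = 0.0741), which did not pass in edgeR and did in DESeq2 (adjusted p = 0.0148). The call between the knockouts held in 7 of 13 alternative fits, among which the adjusted p ran from 0.000407 to 0.117, and it was lost without Ms4a6c knockout 2 (0.105) or 3 (0.117) and without cluster knockout 2 (0.0705) or 3 (0.0859), and also in a fit of the 2 knockouts alone (0.0607) and with the replicate number as a block (0.0964). Ctss was the 1 gene called among 9 class II processing genes, whose median was 0.088. In the other 2 comparisons edgeR called 0 of 9, with 0 and 1 at an unadjusted p under 0.05, and the lysosomal proteases Ctsb (598 CPM in wild type), Ctsd (366) and Lgmn (144) had log2 fold changes against wild type between -0.053 and 0.068.

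The transactivation genes gave no call. None of 8 passed in any comparison, and at an unadjusted p under 0.05 there were 0, 0 and 1, the last being Rfxap (17 ± 1.12 CPM in the cluster knockout against 19.9 ± 1.81 in the Ms4a6c knockout, adjusted p = 0.512). Rfx5, Rfxank and Rfxap, the subunits of the factor that binds the X box, were at 14.2, 12.5 and 19.2 CPM in wild type, and Nfya, Nfyb and Nfyc, the subunits of the factor that binds the Y box, at 32.6, 28.9 and 41.4. Both are used by many genes outside class II. Ciita was at 3.1 CPM, and whether it limits class II RNA here was not tested. None of 5 tested T cell costimulation genes passed either, and Cd80 and Cd86 were at 0.559 and 2.1 CPM in wild type.

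Class I genes, which share interferon control with class II, gave no call either. Between the knockouts 0 of 17 class I presentation genes were called, 6 were higher and 0 lower in the cluster knockout at an unadjusted p under 0.05 (4.68% and 4.7% of all genes tested), and the median was 0.19. Of the 17 genes, 13 had a positive and 4 a negative log2 fold change. Without the 2 Bpifb9b-rich libraries 4 were higher and 2 lower, beside 1243 and 1160 of all 22710 genes tested, with a median of 0.10. B2m, the light chain of class I, was at 117 ± 12.3 CPM in the cluster knockout, 81 ± 7.57 in the Ms4a6c knockout and 114 ± 14.8 in wild type (adjusted p = 0.103 between the knockouts and 0.12 against wild type). H2-K1, a class I heavy chain, gave 142 ± 24.2, 97.8 ± 1.86 and 131 ± 29 CPM, with adjusted p = 0.271 and 0.348. In both genes every Ms4a6c knockout mouse was below the other 6, which by library total alone held for H2-K1 and not for B2m.

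Interferon gamma is a main inducer of Ciita, and its gene Ifng was listed at 0 in wild type and averaged 0.0334 and 0.0137 CPM in the knockouts, under the limit of detection. Of 18 tested response genes 0 were called in each comparison. At an unadjusted p under 0.05, 8 were higher and 1 lower in the cluster knockout than in the Ms4a6c knockout, beside 4.68% and 4.7% of all genes tested. Gbp6, an interferon-induced GTPase, was at 5.04 ± 1.36 CPM in wild type, 4.08 ± 0.246 in the cluster knockout and 1.54 ± 0.684 in the Ms4a6c knockout (adjusted p = 0.0682 against wild type). Cxcl9, an interferon gamma-induced chemokine, had 2.35, 0.776 and 1.99 CPM in wild type, 1.8, 1.99 and 2.15 in the cluster knockout and 0.697, 0.248 and 0.892 in the Ms4a6c knockout, from 4 to 43 counts. The summed level of the list was 150 to 172 CPM in wild type, 154 to 176 in the cluster knockout and 134 to 147 in the Ms4a6c knockout. Without the 2 Bpifb9b-rich libraries 5 of 18 were higher in the cluster knockout than in the Ms4a6c knockout at an unadjusted p under 0.05. So were 1243 of all 22710 genes tested in that fit, and none of the 18 was called.

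Along the 5 class II genes of chromosome 17, from 34119541 to 34316674, 14 genes were tested and 0 were called in each comparison. This 197 kb stretch also holds the class I genes Tap1, Tap2, Psmb8 and Psmb9, which load and cut class I peptides. Psmb8, an immunoproteasome subunit, was at 4.16 ± 0.576 CPM in the Ms4a6c knockout against 6.15 ± 0.701 in wild type (adjusted p = 0.298) and 7.15 ± 1.41 in the cluster knockout (adjusted p = 0.172). Unadjusted p under 0.05 was reached by 2, 1 and 2 of the 14 genes in the 3 comparisons, beside 4.93%, 10.5% and 9.37% of all genes tested.

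The genes whose levels ran most like the class II genes were sought among 16530 candidates, by Pearson's r over the 9 mice with the mean standardized log2 CPM of the 7 genes. The 10 highest were Micos13 (0.931), B3glct (0.931), Gtf3a (0.93), Nudt11 (0.929), Gm48161 (0.925), H2-Q7 (0.911), Sf3b5 (0.904), Cxcl9 (0.902), Ank (0.887) and Fdx2 (0.885). These values describe 9 libraries that share their scaling, and none of the 10 genes passed the test in any comparison. H2-Q7, a nonclassical class I gene, and Cxcl9 were the 2 immune genes among them, and Cd4 ranked 15 (0.879), Iigp1 40 (0.825), C1qa 49 (0.815) and Tap1 55 (0.81). The values were -0.216 for H2-DMb2, 0.0998 for H2-Ob, -0.0596 for the leukocyte marker Ptprc, and -0.0189 and -0.219 for the B cell markers Cd79a and Cd79b.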

How the data were processed

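The authors sequenced poly-A RNA of the main olfactory epithelium of 3 mice per genotype as paired-end, directional libraries, aligned reads with STAR 2.6.1 and deposited RSEM 1.3.1 expected counts per gene (mm10, GENCODE M25), not normalized. RSEM shares reads between similar genes, which touches H2-DMb1 and H2-DMb2, and H2-DMa in the mice where its expected count was not a whole number. Counts were rounded, genes with fewer than 10 counts over the 9 mice were left out, and 23225 genes were tested in 1 edgeR 4.0.16 quasi-likelihood fit of all mice (R 4.3.3, TMM), with Benjamini-Hochberg adjustment over all of them and a threshold of 0.05. The 95% intervals come from that fit. The fit was tested on simulated data first. Depth ran from 13954591 to 21987174 counts, and the 3-count limit covers counting error only. Alternatives were other filters and scalings, DESeq2 1.42.0, a replicate block, only the genotypes compared, and leaving out each mouse. Chosen after seeing the data were the fits without the 2 libraries rich in Bpifb9b, H2-DMb1 and H2-DMb2 summed, merged exons, the checks of Ctss, of the lists and of levels, signs, spread and overlap on plain library size, and 2 of the promoter motifs. Named genes are the 7 genes, their related lists, the genes between them on chromosome 17, and the 10 genes most like their mean profile (at least 1 CPM). Genes and lists were chosen with earlier results of these data known. Coordinates are from GENCODE M21, promoters from RefSeq. The p-values set a difference between groups of 3 mice against a spread estimated from all 9, so the genotype not compared also enters. For H2-Eb1 between the knockouts the SE was 0.153 in this fit and 0.0905 with the 2 knockouts alone.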

Additional observations from a re-analysis of the deposited data

How the results depend on the processing

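None of the 7 class II genes was called in any comparison under any alternative. Between cluster knockout and wild type, 6 of all genes were called, against 2 with the replicate block, 17 with DESeq2 and 3 to 7 when single mice were left out (3 without wild type 2 or 3). Between Ms4a6c knockout and wild type, 101 were called, against 179 at an adjusted p under 0.1, 182 with no filter, 341 with DESeq2, 350 without the 2 libraries rich in Bpifb9b, and 59 to 143 with single mice left out (59 without wild type 2, 60 without wild type 3, 64 without Ms4a6c knockout 3). Between the knockouts, 103 were called, against 155 at an adjusted p under 0.1, 155 with no filter, 271 with DESeq2, and 66 to 97 with single mice left out (66 without Ms4a6c knockout 2, 67 without Ms4a6c knockout 3). The log2 fold changes near 0 changed sign. For cluster knockout against wild type, leaving out single mice gave -0.15 to 0.11 for H2-Aa, -0.074 to 0.21 for H2-Ab1, -0.13 to 0.20 for H2-Eb1, -0.10 to 0.21 for Cd74 and -0.21 to 0.14 for Ciita, and leaving out the 2 Bpifb9b-rich libraries gave 0.058 for H2-Aa and 0.02 for Ciita. With H2-DMb2 added, H2-DMb1 gave -0.0023. For Ms4a6c knockout against wild type, H2-DMb1 ran from -0.10 to 0.019 and Ciita from -0.34 to 0.0062, both positive without wild type 3 alone. Between the knockouts no class II gene changed sign in the fits, but scaled by library total alone, a comparison of means with no test, Ciita was at 2.96 CPM in the cluster knockout and 3.05 in the Ms4a6c knockout. The causes were not tested. Mice of the same replicate number did not deviate together from their group means (correlations of -0.533 to 0.101 over 16567 genes). Wild type 1 and cluster knockout 2, the libraries rich in Bpifb9b, correlated at 0.474. With 3 mice in each mean and these libraries among them, the correlations cannot show whether the numbers pair mice. The block called 2, 71 and 75 genes. Depth limits Ciita most, at 30 to 72 counts per mouse.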
